A study of Mus musculus with 16 samples.

Results

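Collagens are the triple-helical proteins of the extracellular matrix, and the genes described here are those that encode their chains. Members were the genes whose symbol reads Col, a number, a and a number, taken from probe sets that name a single gene, with 1 probe set per gene, the one with the highest mean signal. This gave 42 collagen chain genes of 20259 genes in all. They came from 53 probe sets, and 5 genes (Col5a2, Col6a4, Col6a5, Col8a2 and Col28a1) had several. Col19a1 was named only by a probe set with several genes and Col22a1 was not matched, so neither is analysed here.

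The study measured RNA from mouse retinas on Affymetrix Mouse Exon 1.0 arrays, 1 array per retina. It has 4 groups of 4 biological replicates: Gtf2ird1 null retinas, which the titles call BEN-NULL, and wild-type (WT) retinas, each at 2 weeks and at 4 months. The text on dissection gives 2 months for the older mice where titles and extraction text give 4 months, and the older groups are called 4 months here. The labels give no strain, sex, drug or design of the null allele, nor whether retinas of a group came from separate animals, so the p-values measure the spread between these arrays. Gtf2ird1, a gene for a TFII-I family transcription factor, had signals of 10.4, 10.4, 10.6 and 10.4 in null retinas and of 10.3, 10.3, 10.2 and 10.3 in WT retinas at 2 weeks. At 4 months it stood at 10.2, 10.3, 10.3 and 10.4 in null and at 10.2, 10.4, 10.3 and 10.2 in WT retinas. Its transcript was not lower in the arrays labelled null at either age (log2 differences of 0.17 and 0.03, limma adjusted p = 0.395 and 1.00), and since the labels do not say which part of the gene is changed, this signal neither checks the labels nor goes against them.

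Each collagen chain carries long runs of a repeat that begins with glycine, and 3 chains wind into a triple helix. Fibril-forming types such as I, II and III make banded fibrils, fibril-associated types such as IX and XII sit on their surface, and type IV builds the open network of basement membranes. In the eye, type II, type IX and type XI collagens make the fibrils of the vitreous gel. Basement membranes with type IV and type XVIII collagen line the inner face of the retina, the blood vessels, the lens and the choroid side of the pigment epithelium. Type VI collagen forms beaded filaments beside basement membranes.

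Signals are given on a log2 scale, on which 1 unit is a factor of 2, and fold sizes are the powers of 2 of the differences. A gene is called when its Benjamini-Hochberg adjusted p from limma, over all 20259 genes, is under 0.05. Most collagen signals were low. As a rough mark of background, the 95th percentile of the mean signals of 975 olfactory and vomeronasal receptor genes was 6.20, and 10658 genes (52.6%) lay above it. Above that mark were 10 collagens: Col2a1, Col4a1, Col4a2, Col4a3, Col6a1, Col6a4, Col9a1, Col9a2, Col18a1 and Col20a1. The other 32 lay at or below it. For these a difference in log2 signal may understate the difference in RNA, or may be one of background and not of collagen RNA. Which of these holds was not tested. Probe sets differ in brightness, so levels are not ranked between genes. By class, 1 of 11 fibril-forming, 3 of 7 fibril-associated, 3 of 6 basement membrane network, 2 of 6 beaded-filament and 1 of 2 multiplexin genes lay above the mark, and so did 0 of 3 short-chain, 0 of 4 transmembrane and 0 of 3 other genes.

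The arrays held retina by the defining markers, and some marker genes of neighbouring tissues gave signal too. The summary over 9 photoreceptor genes ran from 11.8 to 12.1 over the 16 arrays, and that over 8 Muller glia genes from 10.1 to 10.8. The mean over 14 lens genes ran from 7.58 to 12.3, so the signal of these genes differed between replicates. The tissue that this signal came from was not tested. None of 8 cartilage and cornea genes and none of 4 astrocyte genes lay above the background mark. The X-inactivation transcript Xist was bright on 3 WT arrays, replicates 1 and 4 of 2 weeks and replicate 4 of 4 months (12.7, 13.2 and 13.3), and between 4.56 and 4.79 on the other 13. No null array had this signal, so it was split unevenly between the genotypes. A difference of sex, which the labels do not give, thus cannot be fully told apart from one of genotype. For this reason 1 alternative leaves out those 3 arrays.

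**Figure D1:**
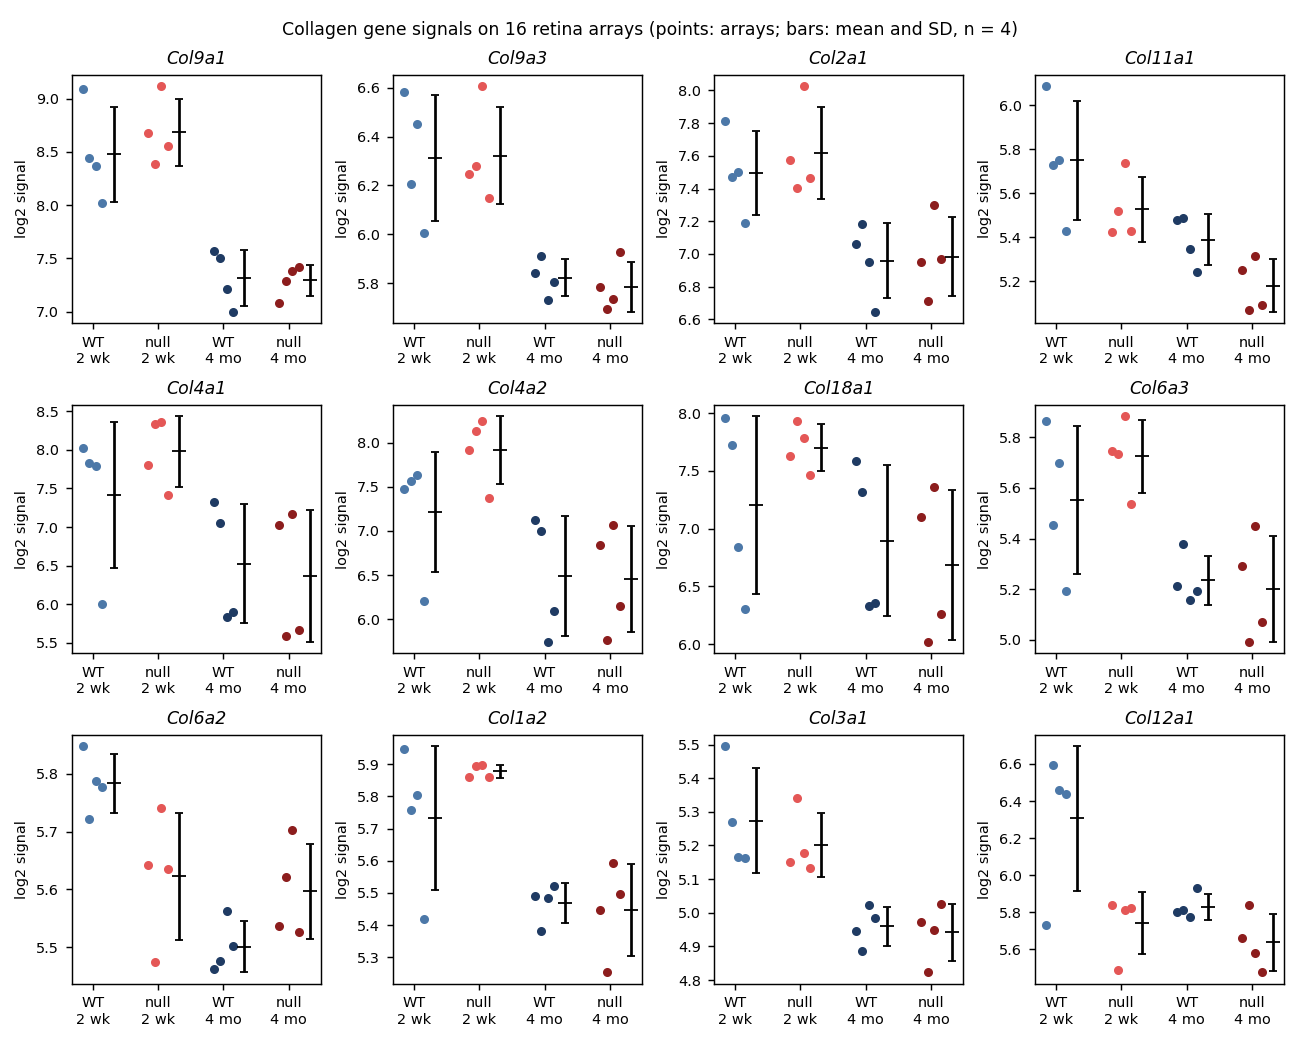
Log2 signal (y axis) of 12 collagen genes on each of the 16 arrays, by genotype and age (x axis). Points are arrays and bars are the mean and SD of 4 arrays. Col9a1 and Col9a3 lay lower on every 4-month array than on every 2-week array, while Col4a1, Col4a2 and Col18a1 were spread over more than 1 log2 unit within both 4-month groups.

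The first question was how collagen genes differ between the maturing retina of 2 weeks and the adult retina. In WT retinas 4 collagen genes were lower at 4 months and 0 were higher. These were Col9a1, which encodes the alpha 1 chain of type IX, Col9a3, which encodes the alpha 3 chain of the same molecule, Col3a1, the single chain of type III, and Col6a2, the alpha 2 chain of type VI. In null retinas 7 were lower and 0 were higher: Col9a1 and Col9a3 again, the type II gene Col2a1, the type I gene Col1a2, the basement membrane genes Col4a1 and Col4a2, and Col6a3, the alpha 3 chain of type VI. Of all genes, 4.81% were called lower and 4.38% higher with age in WT, and 5.9% lower and 3.71% higher in null. Of the collagen calls, 3 in WT and 3 in null were of genes at or below the background mark.

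Differences below 0 were the rule among collagens also where they did not pass. In WT 39 of 42 had a negative difference, against 59.4% of all genes, and the median over collagens was -0.17 against -0.04 over all genes. In null it was 35 of 42, against 53.9% of all genes, with medians of -0.13 and -0.02. Genes at or below the background mark made up 30 of the 39 in WT and 27 of the 35 in null. Scaling changed these counts: after quantile normalization 35 and 30 of 42 were negative, and after median centring 36 in WT and 26 in null. All 4 arrays of 4 months lay below all 4 of 2 weeks for 7 collagens in WT (6.91% of all genes) and for 11 in null (9.82% of all genes), and above them for 0 in WT (5.83% of all genes) and 2 in null, Col20a1 and Col27a1 (7.69% of all genes). The comparisons in WT and in null use different arrays, with 1 estimate of spread per gene for both.

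**Figure D2:**
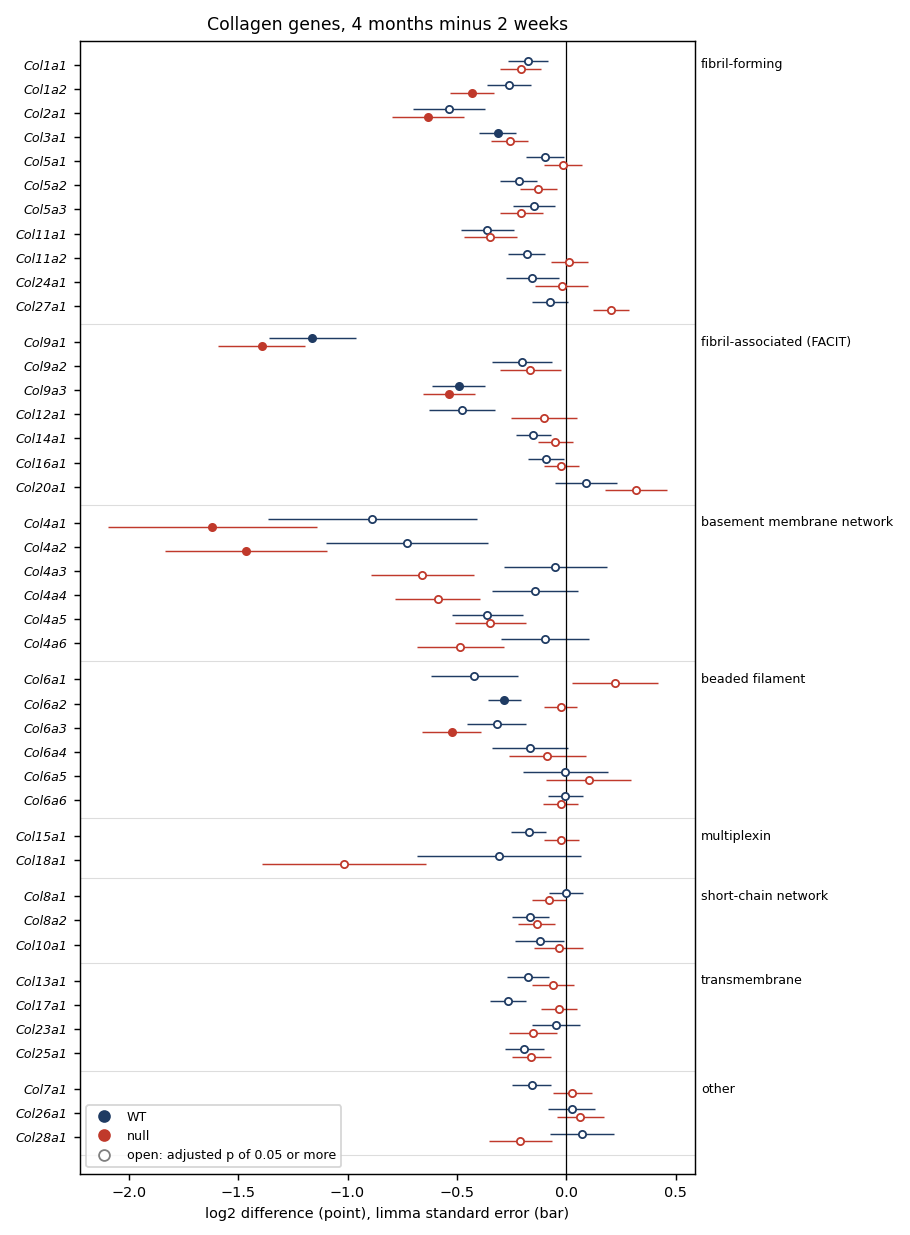
Log2 difference between 4 months and 2 weeks (x axis; point, with the limma standard error as a bar) for the 42 collagen genes by class (y axis), in WT (blue) and null (red) retinas. Filled points passed the test; all 11 filled points lie left of 0, and Col4a1 reaches -1.62 in null retinas.

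Type IX is a heterotrimer of 3 gene products that coats type II fibrils. Col9a1 read 9.09, 8.44, 8.37 and 8.02 in WT retinas of 2 weeks and 7.57, 7.50, 7.21 and 6.997 in those of 4 months. In null retinas it read 8.68, 8.38, 9.12 and 8.56 at 2 weeks and 7.09, 7.29, 7.38 and 7.42 at 4 months. No 4-month array of either genotype reached the lowest 2-week array. The fall was 2.24-fold in WT (log2 difference -1.16 with a standard error (SE) of 0.199, limma adjusted p = 0.00189) and 2.63-fold in null (-1.39, adjusted p = 0.000392), and it passed in all 26 alternative settings for both genotypes.

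Its partner Col9a3 showed the same separation at lower signal. In WT it read 6.58, 6.21, 6.45 and 6.01 at 2 weeks against 5.84, 5.91, 5.73 and 5.80 at 4 months. In null it read 6.25, 6.28, 6.61 and 6.15 against 5.79, 5.69, 5.73 and 5.93. Again the lowest 2-week array lay above the highest 4-month array, in WT at 6.01 against 5.91. The falls were 1.41-fold in WT (-0.49, SE 0.121, limma adjusted p = 0.0179) and of similar size in null (-0.54, adjusted p = 0.00985). In WT the call was lost without WT replicate 3 of 2 weeks (adjusted p = 0.0630) or WT replicate 3 of 4 months (adjusted p = 0.0508). It was also lost with only the arrays compared (limma adjusted p = 0.0627). Col9a2, the gene of the second type IX chain, ran from 6.02 to 6.85 over the 16 arrays with overlapping groups, and its differences of -0.20 in WT and -0.16 in null did not pass (limma adjusted p = 0.422 and 0.561).

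The start regions of 3 genes called lower with age, Col9a1 in both genotypes, Col3a1 in WT and Col1a2 in null, are shown here and beside their values to set their promoter motifs side by side. The sequences are the 250 bases before annotated transcript starts, from RefSeq (GRCm38.p6), in lower case, with capitals for the letters TATAAA (the TATA box), the letters CCAAT (the CCAAT box) and the letters GGGCGG (the GC box), found on either strand. Col9a1 has 2 annotated starts, of which the downstream one is known to give a short chain found in the vitreous, and the probe set signal used here does not separate them. The upstream window held none of the 3 motifs and the downstream one held the letters CCAAT.
Col9a1 chr1:24177360-24177609 (plus strand): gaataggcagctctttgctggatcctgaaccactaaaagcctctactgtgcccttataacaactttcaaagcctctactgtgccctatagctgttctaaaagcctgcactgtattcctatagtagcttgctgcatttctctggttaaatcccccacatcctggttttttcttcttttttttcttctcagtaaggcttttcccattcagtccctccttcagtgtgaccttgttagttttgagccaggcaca
Col9a1 chr1:24194953-24195202 (plus strand): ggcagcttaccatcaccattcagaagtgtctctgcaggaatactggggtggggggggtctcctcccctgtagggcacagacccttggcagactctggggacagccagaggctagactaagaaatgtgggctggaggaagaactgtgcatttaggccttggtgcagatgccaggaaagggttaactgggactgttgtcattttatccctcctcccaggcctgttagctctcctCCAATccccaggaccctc

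Over 37 such windows of 34 collagen genes, 5 (13.5%) held TATAAA, 13 (35.1%) held CCAAT and 22 (59.5%) held GGGCGG on either strand. Over all 32851 windows of the same length the shares were 12.4%, 33.8% and 32.7%. The letters GGATTA, a core described for binding by GTF2IRD1, were in 0 collagen windows and in 6.25% of all windows, which says only that these letters are not in these 250 bases. None of the motifs overlaps another in its letters, and a match is a description of the sequence. Distance from the start was not part of the match, so the letters need not be a working promoter element.

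Among the fibril-forming genes, Col2a1 encodes the chain of type II collagen, the main fibril of vitreous and cartilage. It read 7.82, 7.47, 7.50 and 7.19 in WT at 2 weeks and 7.06, 7.18, 6.95 and 6.64 at 4 months. In null retinas it read 7.57, 7.40, 8.03 and 7.47 at 2 weeks and 6.95, 6.71, 7.30 and 6.97 at 4 months. In both genotypes every 4-month array lay below every 2-week array, by as little as 7.18 against 7.19 in WT. The fall passed in null (1.55-fold, -0.63, SE 0.164, limma adjusted p = 0.0219). In WT the difference of -0.54 had an adjusted p of 0.0524, and the 2 differences were not called different (interaction -0.10, adjusted p = 0.977). The null call was lost without null replicate 3 of 2 weeks or null replicate 1, 2 or 4 of 4 months, with adjusted p between 0.0529 and 0.0755. The WT difference passed with either filter on low signal, with the replicate block, and without null replicate 3 or WT replicate 4 of 2 weeks or null replicate 2 or 3 of 4 months (adjusted p from 0.0329 to 0.0498).

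Type I collagen, the fibril of sclera, skin and bone, is made of 2 chains from Col1a1 and 1 from Col1a2. Col1a2 read 5.86, 5.89, 5.90 and 5.86 in null at 2 weeks and 5.45, 5.25, 5.59 and 5.50 at 4 months, with no overlap. In WT it read 5.95, 5.76, 5.80 and 5.42 at 2 weeks, the last of them within the 4-month range of 5.38 to 5.52. The fall in null was 1.35-fold (-0.43, limma adjusted p = 0.0125) and held in all 24 alternatives that tested the gene. The WT difference was -0.26 (adjusted p = 0.121), with an interaction of -0.17 (adjusted p = 0.939). Without WT replicate 4 of 2 weeks the WT difference passed at -0.37 (limma adjusted p = 0.0184). Col1a1 differed by -0.17 in WT and -0.21 in null, with limma adjusted p of 0.277 and 0.184.

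Col3a1 encodes the chain of type III, which mixes with type I in vessel walls and soft tissue. In WT it read 5.49, 5.27, 5.17 and 5.16 at 2 weeks and 4.94, 4.89, 5.02 and 4.98 at 4 months. In null it read 5.15, 5.34, 5.18 and 5.13, then 4.97, 4.82, 4.95 and 5.02. Its groups did not overlap in either genotype, at signals well under the background mark. It passed in WT (-0.31, limma adjusted p = 0.0308) and not in null (-0.26, adjusted p = 0.0704), with an interaction of 0.05 (adjusted p = 0.976). The WT call was lost without any one of WT replicates 1 and 2 of 2 weeks and 1, 2 and 4 of 4 months (adjusted p from 0.0521 to 0.0871), and with the replicate block (adjusted p = 0.0603). Median centring (limma adjusted p = 0.0580), only the arrays compared (0.114) and leaving out the 3 arrays with Xist signal (0.116) also ended it. The null difference of Col3a1 passed with quantile normalization (limma adjusted p = 0.016) and array weights (0.0253). It also passed without WT replicate 1 of 2 weeks (0.0249) and without the 3 arrays with Xist signal (0.0395). The start windows of these genes differ: that of Col3a1 holds the letters TATAAA and that of Col1a2 holds GGGCGG at 2 places and also CCAAT.
Col3a1 chr1:45311288-45311537 (plus strand): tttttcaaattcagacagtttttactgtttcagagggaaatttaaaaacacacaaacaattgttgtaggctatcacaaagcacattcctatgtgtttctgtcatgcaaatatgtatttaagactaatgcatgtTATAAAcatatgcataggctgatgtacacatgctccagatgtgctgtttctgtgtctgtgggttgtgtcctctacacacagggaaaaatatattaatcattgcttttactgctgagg
Col1a2 chr6:4505368-4505617 (plus strand): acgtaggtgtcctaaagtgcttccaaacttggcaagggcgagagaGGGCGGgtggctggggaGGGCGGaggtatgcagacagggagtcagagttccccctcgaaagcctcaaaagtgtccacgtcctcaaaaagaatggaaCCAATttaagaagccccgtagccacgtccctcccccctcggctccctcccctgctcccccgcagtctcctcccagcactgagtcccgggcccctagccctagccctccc

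The other fibril-forming genes did not pass in either genotype. Col11a1, whose chain nucleates type II fibrils, differed by -0.36 in WT (limma adjusted p = 0.0759) and by -0.35 in null (adjusted p = 0.0860), and in null its 4-month arrays, at 5.07 to 5.31, lay below its 2-week arrays, at 5.42 to 5.74. Its null difference passed in some alternatives (limma adjusted p from 0.0208 to 0.0470), and its WT difference without WT replicate 4 of 2 weeks (0.0204). Col5a1, Col5a2 and Col5a3, which encode the chains of type V that set fibril width, differed by -0.22 to -0.01. Col11a2 differed by -0.18 in WT and 0.01 in null, and Col24a1 by -0.15 and -0.02. Col27a1, a minor fibrillar gene of cartilage, was one of the few with a difference above 0: in null retinas its 4-month arrays (5.92 to 6.15) lay above its 2-week arrays (5.77 to 5.89), with a difference of 0.20 (adjusted p = 0.145). The 11 fibril-forming genes had medians of -0.18 in WT and -0.21 in null.

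The basement membrane network genes varied widely between arrays of a group. Col4a1 and Col4a2 encode the 2 chains of the common type IV trimer, and their annotated starts lie 21 bases apart on opposite strands. Col4a1 read 7.81, 8.34, 8.36 and 7.41 in null retinas at 2 weeks and 7.03, 5.59, 7.17 and 5.66 at 4 months. In WT it read 8.03, 7.83, 7.79 and 6.01 at 2 weeks and 7.32, 7.05, 5.84 and 5.90 at 4 months. Each 4-month group thus held 2 arrays near 7 and 2 under 6, and WT replicate 4 of 2 weeks, at 6.01, was nearer to the latter. The fall in null was 3.07-fold (-1.62, SE 0.477, limma adjusted p = 0.0418), and in WT the difference was -0.89 (adjusted p = 0.287), with an interaction of -0.73 (adjusted p = 0.940).

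Col4a2 split the 4-month arrays in the same way. It read 7.91, 8.14, 8.25 and 7.38 in null at 2 weeks and 6.84, 5.76, 7.07 and 6.15 at 4 months. In WT it read 7.47, 7.56, 7.63 and 6.20 at 2 weeks, then 7.12, 7.004, 5.74 and 6.09. The null groups did not overlap and the WT groups did, through WT replicate 4 of 2 weeks. The fall in null was 2.76-fold (-1.47, SE 0.370, limma adjusted p = 0.0191), and in WT the difference was -0.73 (adjusted p = 0.255), with an interaction of -0.74 (adjusted p = 0.920). The null call of Col4a1 was lost without null replicate 1, 2 or 3 of 2 weeks or replicate 2 or 4 of 4 months (adjusted p from 0.0773 to 0.129). It was also lost with quantile normalization (limma adjusted p = 0.0502), array weights (0.0522) and trended robust moderation (0.0636). The null call of Col4a2 was lost without null replicate 3 of 2 weeks or replicate 2 or 4 of 4 months (adjusted p from 0.0584 to 0.0679).

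Col4a3 and Col4a4, whose chains form the kidney-type trimer with the Col4a5 product, differed by -0.66 and -0.59 in null and by -0.05 and -0.14 in WT. None of these passed (limma adjusted p = 0.0939 and 0.0726 in null). The null difference of Col4a4 passed with the replicate block and without null replicate 1 or 3 of 4 months (limma adjusted p from 0.0313 to 0.0476). Col4a5 and Col4a6, a head-to-head pair on the X chromosome with starts 1343 bases apart, differed by -0.35 and -0.48 in null and by -0.36 and -0.10 in WT. All 6 type IV genes were below 0 in both genotypes, with class medians of -0.25 in WT and -0.62 in null; in WT 1 of the 6 turned above 0 without replicate 1 or 2 of 2 weeks or replicate 3 or 4 of 4 months. Col18a1 encodes type XVIII, the basement membrane collagen whose end fragment is endostatin. It read 7.63, 7.93, 7.79 and 7.46 in null at 2 weeks against 7.10, 6.02, 7.36 and 6.26 at 4 months, and 7.96, 7.72, 6.84 and 6.30 in WT against 7.59, 7.31, 6.33 and 6.36. The null groups did not overlap, yet the difference of -1.02 did not pass (adjusted p = 0.106), nor did that of -0.31 in WT (adjusted p = 0.684). With only the arrays compared the null difference passed (limma adjusted p = 0.036). Col15a1, its relative in vessel and muscle basement membranes, differed by -0.17 in WT and -0.02 in null.

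The same arrays were high for several of these genes. At 4 months the 4 highest of 8 arrays were WT replicates 1 and 2 and null replicates 1 and 3 for Col4a1, Col4a2, Col4a3, Col4a4, Col4a6, Col6a3 and Col18a1, that is 7 of 42 collagens (16.7%) and 493 of all genes (2.43%). This set of 4 arrays was taken from these data as the 4 highest for Optc, which encodes opticin, a vitreous protein made by the ciliary body. Optc read 8.62, 8.17, 5.53 and 7.90 in WT and 8.66, 6.02, 9.05 and 6.66 in null at 4 months. At 2 weeks it read 10.4, 9.69, 9.09 and 7.18 in WT and 10.2, 9.97, 10.5 and 10.3 in null, with WT replicate 4 lowest as for Col4a1. The fibroblast and meningeal gene Ogn was lowest on the same WT array (5.56, against 8.69 to 10.001 on the other 3). At 4 months, however, the 4 highest arrays for Ogn and for the lens gene Cryaa were WT replicates 2 and 4 and null replicates 1 and 3.

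Some marker lists, not all, held genes called lower with age. The lists cover neighbouring tissues and also cells within the retina, vessel cells among them. They do not each mark 1 tissue only, and Tyrp1 is on both the ciliary and the pigment epithelium list. Of all genes, 4.81% were called lower and 4.38% higher in WT, and 5.9% and 3.71% in null. Of 8 ciliary body, iris and vitreous genes, 2 were lower at 4 months in WT and 3 in null, and the list's mean per array ran from 6.99 to 8.10 in WT and 8.17 to 8.31 in null at 2 weeks, then from 6.56 to 7.41 and 6.46 to 7.68. Pigment epithelium genes were lower for 2 of 15 in WT and 8 of 15 in null, endothelial genes for 4 and 5 of 11 with 1 higher in each, and pericyte genes for 3 and 4 of 10. Their array means lay between 6.27 and 7.45, 6.28 and 6.67, and 6.49 and 6.77 at 2 weeks, and between 5.56 and 6.42, 6.15 and 6.27, and 5.98 and 6.22 at 4 months. Of 14 lens genes 0 were lower in WT and 1 in null, with array means of 7.72 to 10.1 in WT and 9.27 to 12.3 in null at 2 weeks and of 7.58 to 10.4 and 7.68 to 11.04 at 4 months. WT replicate 4 of 4 months had the highest lens mean of its group (10.4) with Col4a1 at 5.90. Of 12 fibroblast genes, 3 of them above the background mark, 0 were lower in WT and 2 in null, and their array means ran from 5.34 to 6.14 at 2 weeks and from 5.18 to 5.98 at 4 months. Of 8 Muller glia genes 1 was lower in each genotype, of 9 photoreceptor genes 1 was higher in each, of 4 astrocyte genes 1 was lower in WT, of 8 cartilage and cornea genes 0 were called by limma, and of 2 blood genes 1 was lower in WT. The part of these tissues and cells in the collagen differences was not tested, and in whole retinas fewer cells of a type and less RNA per cell cannot be told apart.

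**Figure D3:**
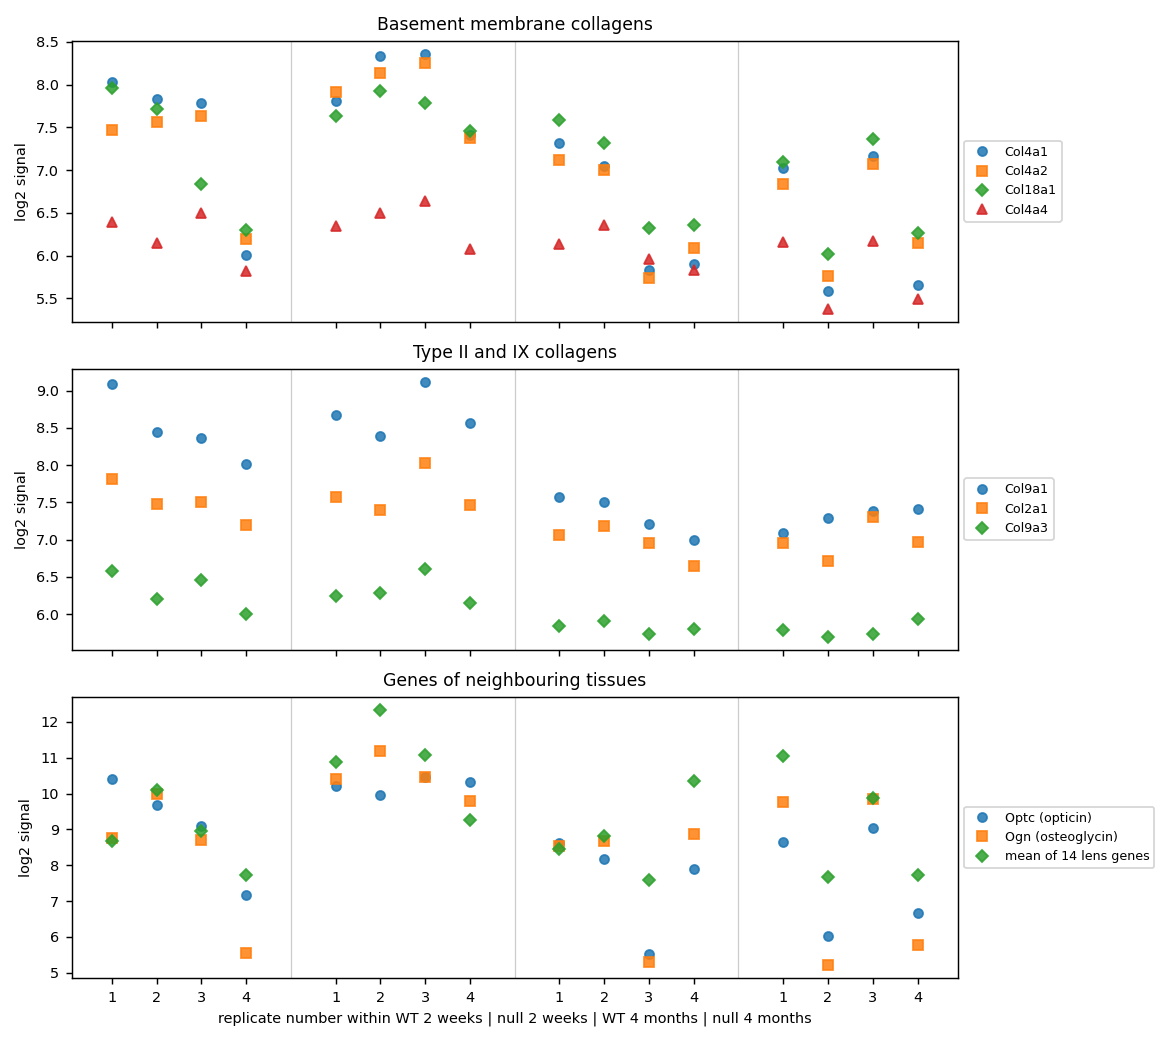
Log2 signal (y axis) on each of the 16 arrays (x axis, by group and replicate number) for basement membrane collagens, for type II and IX collagens, and for Optc, Ogn and the mean of 14 lens genes. In both 4-month groups Col4a1 and Col4a2 split into 2 higher and 2 lower arrays, whereas Col9a1 kept between 6.997 and 7.57 on all 8.

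The type VI genes did not move as one. Col6a3, the large chain of the beaded filament, read 5.75, 5.73, 5.88 and 5.54 in null at 2 weeks and 5.29, 4.99, 5.45 and 5.07 at 4 months. In WT it read 5.87, 5.45, 5.70 and 5.19, then 5.21, 5.38, 5.16 and 5.19. The null groups were separate and the fall passed there (1.44-fold, -0.52, limma adjusted p = 0.0205), while the WT difference of -0.32 did not (adjusted p = 0.163; interaction -0.21, adjusted p = 0.940). The null call was lost without null replicate 1 or 3 of 2 weeks or replicate 2 or 4 of 4 months (adjusted p from 0.0541 to 0.0710). The WT difference passed without WT replicate 4 of 2 weeks at -0.44 (limma adjusted p = 0.0466).

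Col6a2 gave the reverse picture. It read 5.85, 5.72, 5.79 and 5.78 in WT at 2 weeks and 5.46, 5.48, 5.56 and 5.50 at 4 months. In null it read 5.64, 5.47, 5.74 and 5.63, then 5.54, 5.62, 5.70 and 5.53. The WT groups were separate and the null groups overlapped widely. It passed in WT (-0.28, limma adjusted p = 0.0246) and not in null (-0.03, adjusted p = 0.899), and the interaction of 0.26 did not pass (adjusted p = 0.768). The WT call was lost without WT replicate 3 of 2 weeks or replicate 1 or 2 of 4 months (adjusted p from 0.0609 to 0.0668). Quantile normalization (limma adjusted p = 0.0958), only the arrays compared (0.08125) and leaving out the 3 arrays with Xist signal (0.1345) also ended it. Col6a1, the alpha 1 chain, differed by -0.42 in WT (adjusted p = 0.216) and 0.22 in null (adjusted p = 0.587). Without WT replicate 1 of 2 weeks its WT difference passed at -0.65 (limma adjusted p = 0.0116), and with array weights at -0.64 (adjusted p = 0.00836). Col6a4, Col6a5 and Col6a6 differed by -0.17 to 0.10, and the other probe sets of Col6a5 ran both ways, from -0.40 to 0.20 in WT, without a test of their own.

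Among the remaining classes, Col12a1, a fibril-associated gene, differed by -0.48 in WT (limma adjusted p = 0.0591) and by -0.10 in null. Without WT replicate 1 of 2 weeks its WT difference passed at -0.67 (adjusted p = 0.000814), and with array weights at -0.62 (adjusted p = 0.0011). Col20a1 differed by 0.32 in null, where its 4-month arrays (6.79 to 7.07) lay just above its 2-week arrays (6.46 to 6.77), and did not pass (adjusted p = 0.186). Col14a1 and Col16a1 differed by -0.15 and -0.09 in WT and by -0.05 and -0.02 in null. Of the transmembrane genes, Col17a1, the epithelial hemidesmosome collagen, differed by -0.27 in WT with separate groups (adjusted p = 0.0529) and by -0.03 in null. Its WT difference passed in some alternatives (limma adjusted p from 0.0334 to 0.0491). Col13a1, Col23a1 and Col25a1 differed by -0.19 to -0.04 over both genotypes. The short-chain genes Col8a1 and Col8a2, whose type VIII collagen lies in Descemet's membrane and vessel walls, and Col10a1, of hypertrophic cartilage, differed by -0.17 to -0.00, and Col7a1, of the anchoring fibrils of epithelia, Col26a1 and Col28a1 by -0.21 to 0.07.

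Averaging the age difference over both genotypes, a comparison added after the data had been seen, gave 12 lower and 0 higher collagens, where 11.4% of all genes were called lower and 8.63% higher. The 9 genes called in either genotype were among the 12. The other 3 were Col11a1 (-0.35, limma adjusted p = 0.00751), Col4a5 (-0.35, adjusted p = 0.0382) and Col1a1 (-0.19, adjusted p = 0.0478). Leaving out any one of 9 arrays ended the averaged call of Col4a5 (adjusted p from 0.0521 to 0.0813), any one of 10 that of Col1a1 (0.0573 to 0.102) and any one of 13 that of Col6a2 (0.0508 to 0.0961). Over all 23 alternatives these averaged calls of Col4a5, Col1a1 and Col6a2 were lost in 12, 15 and 18. For Col9a1, Col9a3 and Col3a1 all 8 arrays of 4 months lay below all 8 of 2 weeks (1.96% of all genes). By class the 12 were 5 fibril-forming, 3 basement membrane network, 2 fibril-associated and 2 beaded-filament genes.

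The second question was whether collagen genes differ between null and WT retinas of 1 age. At 2 weeks limma called 0 of 42 collagens, while 1.06% of all genes were called. At an unadjusted p under 0.05 there were 7 (12.5% of all genes): Col6a1, Col6a2, Col10a1, Col12a1, Col17a1, Col20a1 and Col27a1, each with a lower mean in null. The groups did not overlap for 4 collagens (5.82% of all genes), with Col16a1, Col17a1 and Col27a1 lower and Col24a1 higher in null. Without 1 array, WT replicate 1, limma called 2 collagens, a count for which the share over all genes is not given here.

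Those 2 were Col12a1 and Col6a1. Col12a1 encodes type XII, a long fibril-associated collagen of dense connective tissue. It read 5.84, 5.49, 5.81 and 5.82 in null at 2 weeks and 5.73, 6.60, 6.46 and 6.44 in WT. WT replicate 1 lay inside the null range, and the other 3 WT arrays lay between 6.44 and 6.60, above the highest null array at 5.84. The difference was -0.57 (SE 0.15, limma adjusted p = 0.0930) over all arrays and -0.76 (adjusted p = 0.00112) without that array.

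Col6a1, the alpha 1 chain of type VI, split the arrays in the same way. It read 7.67, 7.18, 7.71 and 7.40 in null and 7.30, 8.28, 8.16 and 8.23 in WT. WT replicate 1 was again among the null values and the other 3 above them all. Its difference of -0.50 had a limma adjusted p of 0.298, and without WT replicate 1 it was -0.74 (adjusted p = 0.0212). With array weights, which gave that array 0.198, both passed at -0.67 (adjusted p = 0.00301) and -0.62 (adjusted p = 0.0411). WT replicate 1 was one of the 3 arrays with Xist signal, and without those 3 Col12a1 alone passed (-0.79, adjusted p = 0.00655).

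Col20a1, a fibril-associated gene, read 6.49, 6.46, 6.77 and 6.77 in null and 6.74, 7.14, 7.18 and 6.94 in WT at 2 weeks. The groups overlapped through WT replicate 1 only, and the difference was -0.38 (limma adjusted p = 0.266). Col27a1 read 5.89, 5.87, 5.77 and 5.83 in null and 6.06, 5.97, 6.24 and 6.13 in WT, with no overlap and a difference of -0.26 (adjusted p = 0.176).

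The 6 type IV genes all had higher means in null at 2 weeks, with a class median of 0.24, but none had an unadjusted p under 0.05. Col4a1 differed by 0.57 (SE 0.477, limma adjusted p = 0.657), Col4a2 by 0.70 (SE 0.370, adjusted p = 0.457) and Col18a1 by 0.50 (adjusted p = 0.618). These values rested largely on WT replicate 4, which at 6.01 for Col4a1 and 6.20 for Col4a2 was the lowest 2-week array for both. Without it Col4a1 differed by 0.10, Col4a2 by 0.36 and Col18a1 by 0.20, Col4a3 and Col4a5 turned to -0.03 and -0.01, and the class median was 0.07. Without null replicate 3, 5 of the 6 stayed above 0 (median 0.18). The lens list at 2 weeks had a median of 2.18 with 0 of 14 called, the pigment epithelium list had 3 of 15 called higher in null, and the ciliary list had a median of 0.41 with 0 of 8 called. Their part in the type IV values was not tested.

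**Figure D4:**
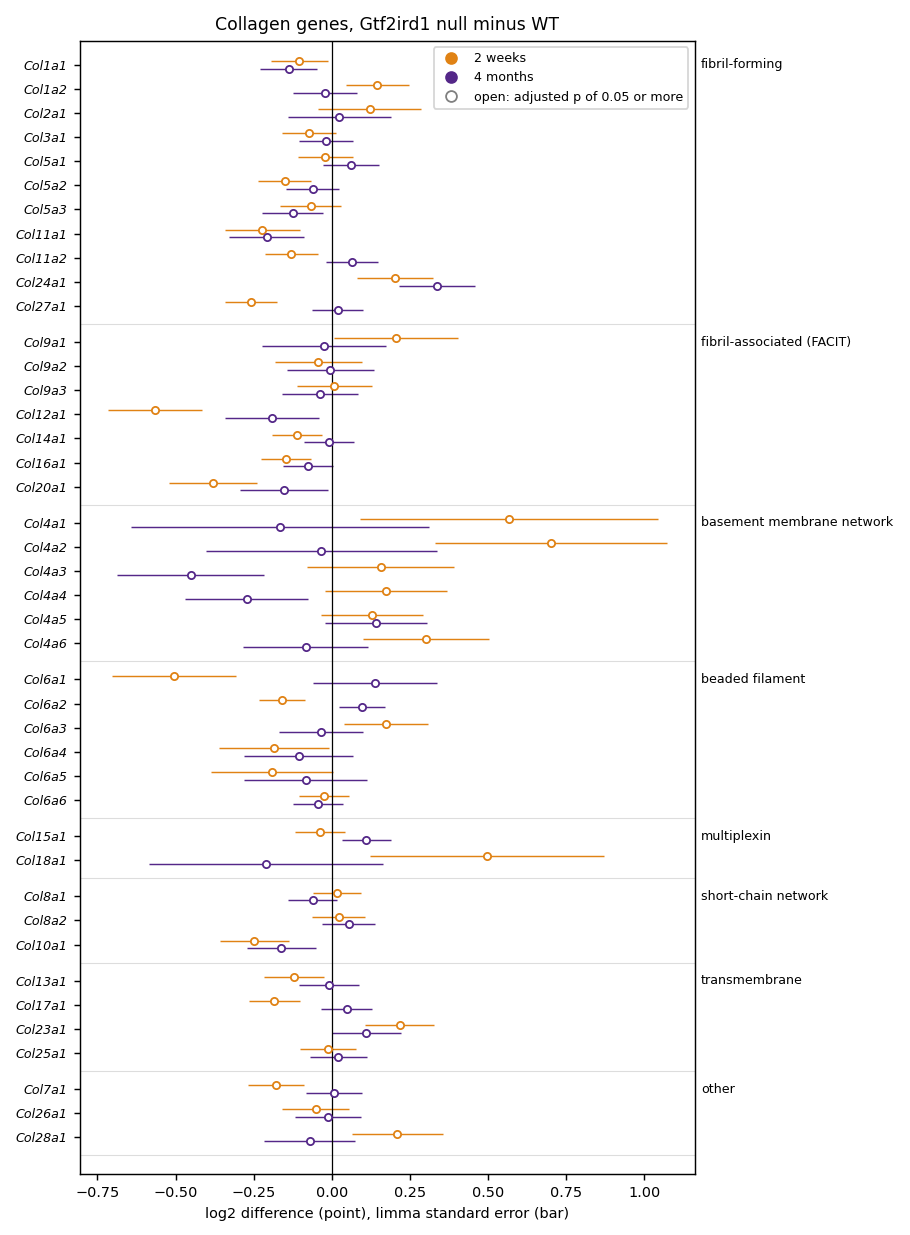
Log2 difference between null and WT (x axis; point, with the limma standard error as a bar) for the 42 collagen genes by class (y axis), at 2 weeks (orange) and 4 months (purple). All points are open, so none passed the test. At 2 weeks Col12a1 lies at -0.57 and Col4a2 at 0.70.

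At 4 months limma called 0 collagens between null and WT (0.41% of all genes were called), 1 had an unadjusted p under 0.05 (5.37% of all genes), and the groups of 0 were separate (4.73% of all genes). The 1 gene was Col24a1, a minor fibrillar collagen gene, with signals of 5.40, 5.38, 5.53 and 5.51 in null and 4.82, 5.22, 5.05 and 5.39 in WT. The groups touched, at 5.38 and 5.39, and the difference was 0.34 (SE 0.122, adjusted p = 0.586). Col12a1 differed by -0.19 and Col6a1 by 0.14 at this age. Type IV genes had a class median of -0.12, with 5 of 6 below 0, and this direction depended on single arrays: the median was 0.07 without null replicate 2, 0.04 without null replicate 4, 0.07 without WT replicate 1 and 0.00 without WT replicate 2. The median over the 42 collagens was -0.04 at 2 weeks and -0.03 at 4 months, against -0.02 and -0.00 over all genes.

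The change of the null difference between ages was called for 0 collagens by limma (2 of all genes, 0.00987%), and 3 had an unadjusted p under 0.05 (5.92% of all genes). These 3 were Col6a1 (0.64, adjusted p = 0.805), Col6a2 (0.26) and Col27a1 (0.28). No collagen had separate groups at both ages, where 134 of all genes did (0.661%). With an SE of 0.477 for Col4a1 and 0.0739 for Col6a2, the arrays resolved small differences in some members and only large ones in others.

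Collagen chains need enzymes, chaperones and partners, and these were counted from 5 lists. Of their 66 measured genes 13 were lower and 1 higher at 4 months in WT, and 22 lower and 3 higher in null, beside 4.81% and 4.38% of all genes in WT and 5.9% and 3.71% in null. Genes of either direction made up 21.2% of the lists in WT and 37.9% in null (9.19% and 9.61% of all genes). The lists were chosen with earlier results of these data known and were not matched to all genes in signal. These shares are therefore a description and not a test. Of 19 modification and folding genes measured, 4 were lower and 1 higher at 4 months in WT, and 7 and 1 in null. Plod1, a lysyl hydroxylase, fell by 0.59 in WT and by 1.14 in null on the log2 scale. The prolyl hydroxylase subunit P4ha2 and the gene P3h4 fell by 0.94 and 0.83 in null. The prolyl hydroxylase family member P3h3 rose by 0.50 in WT and 0.46 in null. The limma adjusted p of these values ran up to 0.0434, that of Plod1 in WT, and that call was lost in 15 of 26 alternatives, among them any one of 11 arrays left out.

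Of 11 propeptide removal and cross-linking genes, 2 were lower in WT, and 3 lower and 1 higher in null. Pxdn, the peroxidasin that cross-links type IV collagen, fell by 1.72 on the log2 scale in null (limma adjusted p = 0.00816), and Loxl1, a lysyl oxidase family member, by 1.69 (adjusted p = 0.0137). The call of Loxl1 was lost without null replicate 4 of 4 months. Pcolce2, an enhancer of propeptide removal, fell by 0.64 in WT and 0.88 in null, and its WT call was lost without WT replicate 2 or 3 of 2 weeks or 1, 2 or 3 of 4 months (adjusted p up to 0.103 over all alternatives).

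Receptors of collagen and the proteases that degrade it were counted next. Of 9 collagen receptors 1 was lower in WT and 2 in null: Itgb1, the shared beta 1 integrin chain (-0.57 and -0.92), and in null the receptor kinase Ddr1 (-0.62). Of 13 breakdown genes 2 were lower in WT, and 3 lower and 1 higher in null. The gelatinases Mmp2 (-1.17 in WT, -1.56 in null) and Mmp9 (-1.24 and -0.64) fell in both, with limma adjusted p between 6.0e-05 and 0.0191. The cathepsin gene Ctsk rose by 0.46 in null. The null call of Mmp9 was lost without null replicate 3 or 4 of 2 weeks or 1, 3 or 4 of 4 months (adjusted p up to 0.0660), and the WT call of Itgb1 without any one of 8 arrays, 6 of them WT (adjusted p up to 0.116).

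Of 14 genes of basement membrane partners, 4 were lower in WT and 7 in null, and 0 were higher. The laminin genes Lamb1 (-0.97 and -1.16), Lama4 (-0.45 and -0.62) and Lama1 (-0.55 and -0.53) fell in both. In null the perlecan gene Hspg2 fell by 1.98 on the log2 scale (limma adjusted p = 0.0434), Lama2 by 1.33 and Lamc1 by 0.89. The call of Hspg2 was lost in 10 of 26 alternatives, 8 of them a single array left out, and those of Lama1 and Lamc1 in null were lost without null replicate 3 of 2 weeks or 4 of 4 months (adjusted p up to 0.0562 and 0.0592). For these partners, too, the list medians of -0.45 and -0.57 stood beside -0.04 and -0.02 over all genes.

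Between genotypes 3 of the 66 measured genes of the 5 lists, chosen as stated above, passed at 2 weeks, or 4.55% beside 1.06% of all genes. These were the genes P4ha3 (0.77, limma adjusted p = 0.00323), P3h4 (0.87, adjusted p = 0.0263) and Ddr1 (0.66, adjusted p = 0.0292), all higher in null, and the calls of P3h4 and Ddr1 were each lost without any one of 5 arrays. P4ha3, P3h4 and Ddr1 were also called lower at 4 months in null, a comparison that uses the same null arrays of 2 weeks. At 4 months 0 genes of the 5 lists were called by limma (0.41% of all genes).

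**Figure D5:**
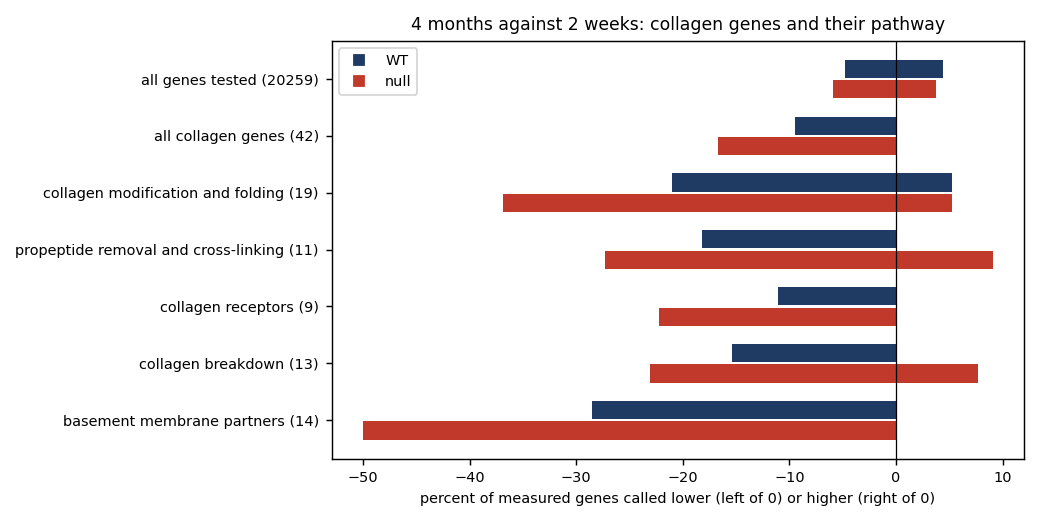
Share of genes called lower (left of 0) or higher (right of 0) at 4 months against 2 weeks, in percent (x axis), for all 20259 genes, the 42 collagens and 5 lists of collagen-related genes (y axis, measured genes in brackets), in WT (blue) and null (red) retinas. The longest bars are those of the basement membrane partners, with 7 of 14 genes lower in null.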

How the data were processed

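RNA of 16 mouse retinas was hybridised to exon arrays, and the deposited table holds 1 value per probe set and array. Per the submitters' processing notes, Partek, RMA and the mm8 build were used; their versions and settings are not given in the sources used here. As deposited by the authors, the values are taken as log2 signal, because they run from 3.76 to 15.7 under the scanner's ceiling of 16 and RMA gives that scale; array medians were 5.31 to 5.55. Of 115830 probe sets, 25539 name 1 gene, 2300 several and 87991 none, and 3109 of the 20259 genes had several probe sets, of which the one with the highest mean over 16 arrays was used. Signals are per gene, so changes in exon use are not seen, and no per-sample scanner files were used here.

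All arrays entered 1 limma model of 4 group means (lmFit, eBayes; limma 3.58.1, R 4.3.3), without a block, and p-values were adjusted over all 20259 genes. The number of arrays limits the precision. Counts of genes with separate groups need no model. The fit was tested on simulated data.

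Alternatives were quantile normalization, median centring, 2 filters on low signal, the mean of all probe sets of a gene, trended robust moderation, only the arrays compared, array weights, a replicate block and leaving out each array. The averaged age difference and the setting without the 3 arrays with Xist signal were added after the data were seen. Residual correlations of same-numbered arrays ran from -0.37 to 0.27 over 24 pairs, 5 of them above 0.1. Those of different-numbered arrays ran from -0.38 to 0.38 over 72 pairs, 20 of them above 0.1. The labels state no pairing, and these correlations cannot exclude one that left little trace in the signals.

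The members and lists were chosen with earlier results of these data known. Named with values were collagens called in any comparison, the brightest of a class, members with separate groups at both ages and head-to-head partners, and of each other list up to 3 called genes per direction. Further members are named as counts or as those nearest the threshold, chosen after their values were seen.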

Additional observations from a re-analysis of the deposited data

Results flagged for a closer look

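Within each group of 4 arrays, the highest or lowest array was set against the others by Dixon's test. An array stood apart in 16 of 168 groups of collagen values. The test's nominal rate is about 1 in 20, but the 168 groups come from the same 16 arrays and are not independent. The same count was not made over all genes, so no excess among collagens is read from it. WT replicate 4 of 2 weeks was low for 3 type IV genes: Col4a1 at 6.01 (others 7.79 to 8.03), Col4a2 at 6.20 (7.47 to 7.63) and Col4a3 at 5.86 (6.54 to 6.68). WT replicate 1 of 2 weeks was low for Col6a1 at 7.30 (others 8.16 to 8.28) and high for Col16a1 at 5.48 (5.31), Col9a2 at 6.85 (6.19 to 6.27) and Col10a1 at 5.48 (5.12 to 5.14). WT replicate 2 of 2 weeks was low for Col24a1 at 4.998 (5.34 to 5.38).

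Among null arrays of 2 weeks, replicate 3 was high for Col4a5 at 6.37 (others 5.77 to 5.82) and Col24a1 at 5.71 (5.39 to 5.42), replicate 2 was low for Col12a1 at 5.49 (5.81 to 5.84) and replicate 4 was low for Col5a3 at 5.20 (5.37 to 5.40). At 4 months WT replicate 3 was high for Col14a1 at 5.04 (4.86 to 4.87). Null replicate 3 of 4 months was high for Col10a1 at 5.09 (4.86 to 4.89) and Col23a1 at 6.06 (5.92 to 5.94), and null replicate 4 was high for Col28a1 at 5.92 (5.75 to 5.77).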

How the results depend on the processing

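Called collagens were lower at 4 months or in null under every alternative run, except Col20a1, which was called higher in the averaged comparison without WT replicate 1 of 4 months (0.28, limma adjusted p = 0.0277). The counts that follow are of collagens only. The shares of all genes given above belong to the limma model of 4 group means and are not given for the alternatives. A change in count is therefore not read as particular to collagens. Between genotypes at 2 weeks the count of 0 became 2 with array weights, 1 without the 3 arrays with Xist signal and 0 to 2 when single arrays were left out (2 without WT replicate 1). At 4 months, and for the change of the null difference with age, it was 0 to 0 over the single arrays left out. The 4 calls with age in WT became 2 with either filter on low signal, 1 with only the arrays compared and 7 with array weights, and ranged from 2 (without WT replicate 3 of 2 weeks or WT replicate 1 or 2 of 4 months) to 9 (without WT replicate 4 of 2 weeks). The 7 in null became 4 with either filter and ranged from 3 (without null replicate 3 of 2 weeks or null replicate 2 or 4 of 4 months, when Col1a2, Col9a1 and Col9a3 were called) to 9. The averaged count of 12 became 4 with either filter and ranged from 9 to 14. The filters leave 8 and 10 of the 42 collagens to test; for the other settings the cause was not tested. With a replicate block the counts were 0, 0 and 0 between genotypes and for their change, 4 in WT, 8 in null and 11 averaged; it gained Col2a1 and lost Col3a1 in WT, gained Col4a4 in null, and gained Col4a4 and lost Col1a1 and Col6a2 in the averaged comparison. Signal near background limits 32 of the 42 genes. For all 5 genes with several probe sets (Col5a2, Col6a4, Col6a5, Col8a2 and Col28a1), another probe set differs in sign from the one used in some comparisons.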
